A study of Mus musculus with 4 samples.

Results

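Sites of the transcription factor p63 were examined at 9 genes for chromatin organisers, remodellers and modifiers, namely Satb1, Bcl11b, Smarca4, Chd7, Kmt2d, Hdac1, Bcor, Dnmt1 and Dnmt3a. A peak was assigned to a gene when its summit, the position of highest coverage, lay in the gene body or within 50 kb of it (mm10). This rule took 23 of 10616 peaks in the wild-type list (WT) and 21 of 14593 peaks in the list from the sample labelled p63 alphaKO (alphaKO). Each list came from 1 chromatin immunoprecipitation and sequencing (ChIP-seq) library of dorsal epidermis at postnatal day 0, precipitated with the antibody EPR570. The labels name neither the way the alphaKO allele was made nor the number, strain or sex of the animals behind each library. With 1 library per genotype no difference between genotypes could be tested, so all values are descriptions without a replicate check. ChIP peaks do not measure transcripts, so the tissue label could not be checked against marker genes.

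p63 binds DNA through a domain shared with p53 and p73 and keeps the cells of stratified epithelia in their lineage. The alpha isoforms differ from the others in a longer C-terminal end that carries a sterile alpha motif domain. In epidermis, p63 acts together with proteins that fold, open or mark chromatin. Satb1 organises loops of keratinocyte gene clusters, Smarca4 is the ATPase of SWI/SNF remodelling complexes, and Kmt2d adds methyl groups to histone H3 at enhancers.

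Of the transcription starts listed for the 9 genes, those of Satb1 and Dnmt1 had a summit within the 250 bases before them, as did, among their protein-coding neighbours, the start of Lmbr1l near Kmt2d. These stretches are shown because a peak lay on promoter sequence there. They are RefSeq sequences of build GRCm38.p6, the assembly that mm10 names, written 5′ to 3′ on the strand of the gene. Capitals mark the pair of cores of a p53-family site in its loosest form, CNNGNNNNNNCNNG, which reads the same on either strand; matches can overlap.
Satb1, chr17:51832648-51832897, minus strand: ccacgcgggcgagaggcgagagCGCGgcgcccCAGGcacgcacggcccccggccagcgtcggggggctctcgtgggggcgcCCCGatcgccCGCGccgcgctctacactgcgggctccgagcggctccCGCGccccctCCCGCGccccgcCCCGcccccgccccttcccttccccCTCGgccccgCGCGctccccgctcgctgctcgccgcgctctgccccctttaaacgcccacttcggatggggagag
Dnmt1, chr9:20952980-20953229, minus strand: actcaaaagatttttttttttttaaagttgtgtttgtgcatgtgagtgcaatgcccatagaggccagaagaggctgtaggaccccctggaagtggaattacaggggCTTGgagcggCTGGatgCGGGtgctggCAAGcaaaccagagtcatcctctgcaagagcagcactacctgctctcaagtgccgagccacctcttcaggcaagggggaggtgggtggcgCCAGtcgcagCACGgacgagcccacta
Lmbr1l, chr15:98918099-98918348, minus strand: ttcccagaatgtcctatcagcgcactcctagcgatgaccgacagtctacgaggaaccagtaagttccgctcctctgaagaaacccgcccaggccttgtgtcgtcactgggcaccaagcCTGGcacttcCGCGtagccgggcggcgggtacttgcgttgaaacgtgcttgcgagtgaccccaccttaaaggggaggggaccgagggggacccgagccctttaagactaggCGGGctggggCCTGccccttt

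The WT summit at Satb1 fell on base 179 of its stretch, the alphaKO summit at Dnmt1 on base 149, and the alphaKO summit at Lmbr1l on base 239. The Satb1 stretch held 41 CpG dinucleotides, more than 98.9% of 32851 listed promoters had, whereas the Dnmt1 stretch held 7 and the Lmbr1l stretch 18, against a median of 6. The loose pair of cores matched 5 times in Satb1, 3 times in Dnmt1 and 2 times in Lmbr1l, and 63.5% of all listed promoters held at least 1 match. The strict form, CATGNNNNNNCATG, was in none of the 3 stretches and in 0.490% of all promoters. These matches describe letters in a window and are not binding sites.

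Each of the 9 genes had a peak of each list in or near it. The background was lower: 47.1% of 21883 protein-coding genes had a WT peak in the same window, 55.0% an alphaKO peak and 40.9% a peak of each list, while 6.14% had WT peaks alone and 14.1% alphaKO peaks alone. The 9 genes are long, with a median body of 93.7 kb beside 17.2 kb for all genes. Among the 7108 genes with bodies from 26.5 to 178 kb, the range of the 9 genes, 48.3% had a peak of each list. The genes were also chosen with earlier results of these data known, so the count of 9 is not evidence about chromatin genes as a class.

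**Figure D1:**
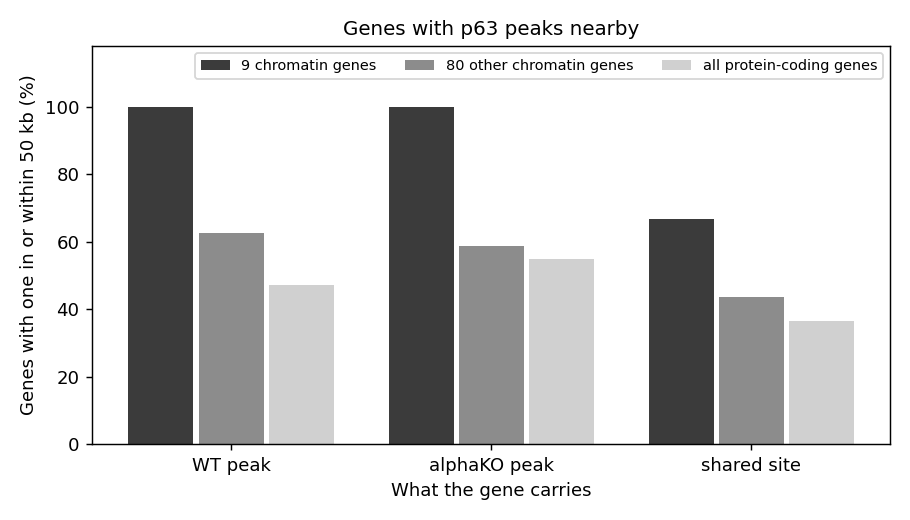
Bars give the percentage of genes (y axis, from 0) with a WT peak, an alphaKO peak or a site listed in both libraries, in the gene body or within 50 kb. All of the 9 genes had a peak of each list, and 6 had a shared site, beside 35 of 80 other chromatin genes and 36.6% of all protein-coding genes.

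A shared site, where a WT and an alphaKO peak overlapped by at least 1 bp, was found at 6 of the 9 genes: Satb1, Bcl11b, Chd7, Hdac1, Bcor and Dnmt3a. Across all protein-coding genes the share was 36.6%, and in the length range above 42.9%. At Smarca4, Kmt2d and Dnmt1 the libraries listed different positions. The 23 WT and 21 alphaKO peaks made up 34 distinct sites, 10 of them shared, 13 listed for WT alone and 11 for alphaKO alone. Thus 43.5% of the WT peaks (95% Wilson interval 25.6 to 63.2, counting error only) had an alphaKO partner, beside 66.6% of the whole WT list. For the alphaKO peaks the share was 47.6% (28.3 to 67.6), beside 48.4% of the whole list. The WT share was thus below that of its list, and the alphaKO share was close to its own. The intervals treat the peaks as independent, but the peaks cluster by gene. All 5 WT peaks of Bcl11b had a partner, beside 1 of 5 at Bcor and none of 3 at Smarca4. The intervals therefore do not measure the difference from the lists, which was not tested.

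The peaks at these genes were of middling strength. The fold enrichment, the authors' ratio of coverage at the summit to the local background, had a median of 7.73 over the 23 WT peaks (3.16 to 17.7) and 8.44 over the list. The 21 alphaKO peaks had a median of 14.2 (2.74 to 51.8) beside 15.5 over their list. Above their list's median lay 10 WT and 10 alphaKO peaks. Peaks with a partner were the stronger ones in each list, with a WT median of 12.0 beside 6.03 without a partner, and an alphaKO median of 18.7 beside 9.92. The same order held over the whole lists (11.5 and 4.79, 21.0 and 12.8).

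**Figure D2:**
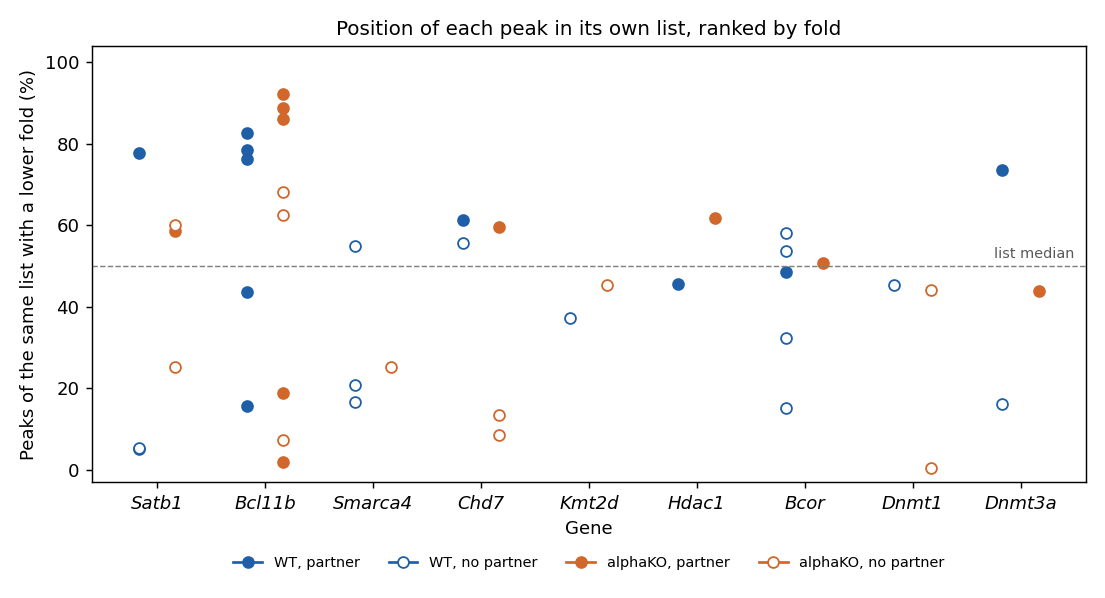
Each point is a peak of 1 of the 9 genes, placed by the percentage of peaks of its own list that had a lower fold (y axis), with filled points for peaks with a partner in the other list and open points for those without. The Bcl11b peaks reach highest, at 82.6% in WT and 92.2% in alphaKO, and the Dnmt1 peak at 0.404% in alphaKO is the lowest.

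Bcl11b, which encodes a zinc finger factor needed for epidermal differentiation and barrier formation, held the most peaks of the 9 genes in alphaKO and, with Bcor, in WT. Its 5 WT and 8 alphaKO peaks lay in a window of 194 kb on chromosome 12 with no other protein-coding gene. Over all genes, 3.76% had 5 or more WT peaks and 0.690% had 8 or more alphaKO peaks in the window. These shares are not matched for length, and the median window of all genes was 117 kb. All 5 WT sites were also listed in alphaKO.

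The Bcl11b site with the highest fold in each list lay 54.1 kb after the listed transcription start, in the gene body (WT chr12:107949204-107949534). In WT its coverage was 128 and its fold 17.7, and in alphaKO its coverage was 316 and its fold 51.8. At another site in the body, 17.5 kb after the start, the WT fold was 15.6 and the alphaKO fold 44.0. Its coverage was 160 in WT, above that of the first site, and 299 in alphaKO, below it. A further site, 47.8 kb before the start, had folds of 14.7 and 39.0, with both summits at the same base, 108051245. Each of these 3 sites was among the stronger peaks of its list, above 76.3% or more of the WT peaks and 86.0% or more of the alphaKO peaks.

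The other shared sites of Bcl11b were weaker. The site 65.7 kb after the start had folds of 7.51 and 8.74. The site nearest the start, at 1.79 kb before it in WT and 2.16 kb in alphaKO, had folds of 4.27 and 3.90. Its summits lay 370 bp apart, so it would not count as shared if summits had to lie within 100 bp. The 3 sites in alphaKO only lay at chr12:107941663-107942072 (fold 22.6), chr12:107953286-107953711 (20.1) and, beyond the other end of the gene, chr12:107880728-107881226 (6.16). The first 2 of them flanked the site with the highest fold, 7.50 kb and 4.15 kb from its alphaKO summit. Their coverages of 135 and 204 lay within the range of the shared Bcl11b sites in the same library, 35 to 316.

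Satb1, the gene of the chromatin organiser, had 3 WT and 3 alphaKO peaks but a single shared site. It lay in the body (WT chr17:51814178-51814562), 2.16 kb before an internal listed start. Coverage there was 137 in WT and 127 in alphaKO, and the folds were 15.3 and 18.5. The remaining WT peaks were weak. One was the promoter peak shown above (chr17:51832675-51833253, coverage 28, fold 3.16), 72 bp before a listed start, and the other lay 0.783 kb from the alphaKO summit of the shared site (coverage 33, fold 3.19). Both ranked among the weakest of the WT list, where 5.18% and 5.41% of peaks had a lower fold.

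The alphaKO peaks of Satb1 without a partner lay outside the gene, before its first listed start. The nearer, 22.5 kb away (chr17:51855559-51855960), had a coverage of 131 and a fold of 19.1, slightly above the shared site in the same library. The farther, 46.9 kb away, had a coverage of 47 and a fold of 9.90. The closest WT summits to them were 23.0 and 47.5 kb off. Satb1 thus had WT peaks in the body only and alphaKO peaks in the body and on the upstream side.

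**Figure D3:**
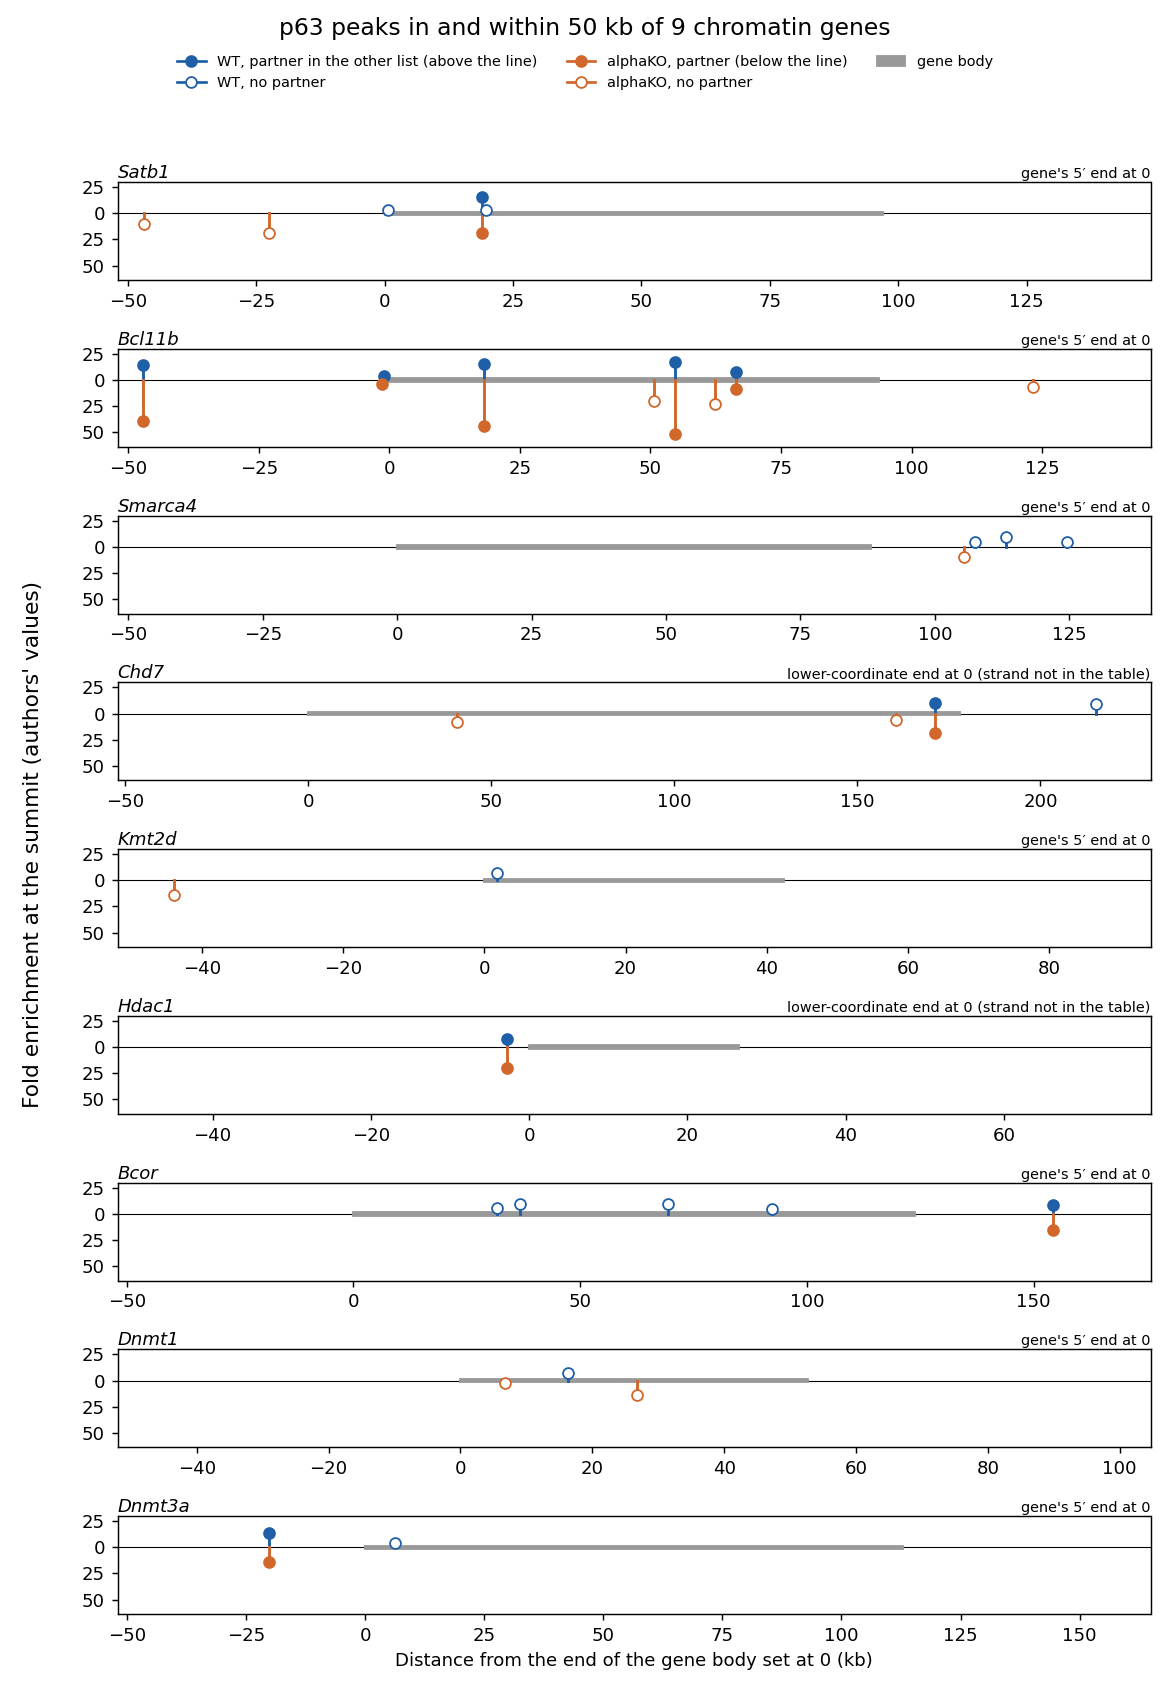
Maps of the 9 genes, with distance in kb from the 5′ end of the gene body (for Chd7 and Hdac1, from the end with the lower coordinate) on the x axis and fold enrichment on the y axis, WT drawn upwards and alphaKO downwards. Filled points have a partner in the other list; all 5 WT sites of Bcl11b do, and none of the sites of Smarca4, Kmt2d or Dnmt1.

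Among the remodellers, Smarca4 had no peak in its body or before its start in either list. Its 3 WT peaks and 1 alphaKO peak all lay beyond its 3′ end. The WT peaks had coverages of 46, 77 and 26 and folds of 4.78, 9.25 and 4.36, and the alphaKO peak had a coverage of 105 and a fold of 9.92. None had a partner, and the alphaKO summit was 1.95 kb from the closest WT summit. The peaks were counted for Smarca4 by distance, and none had it as its nearest gene.

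Chd7 encodes a remodelling ATPase of the chromodomain family. Its body of 178 kb held 1 shared site (WT chr4:8861342-8861653), with a coverage of 91 and a fold of 10.5 in WT and a coverage of 122 and a fold of 18.9 in alphaKO. The WT list had another peak 37.1 kb outside the gene (fold 9.38), and the alphaKO list had 2 more in the body (folds 7.66 and 6.48). The peaks listed in alphaKO only were weak for that list, where 13.5% and 8.65% of peaks had a lower fold. The WT-only peak was above its list's median.

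Kmt2d, the gene of the enhancer methyltransferase, had 1 peak of each list at positions 45.9 kb apart. The WT peak (chr15:98872039-98872368, coverage 63, fold 6.65) lay 1.03 kb before the listed start, within the annotated gene body. The alphaKO peak (chr15:98917934-98918338, coverage 125, fold 14.2) lay 44.0 kb outside the gene and 12 bp before the start of Lmbr1l, on the promoter stretch printed above. The closest WT summit to it was 17.6 kb away. At Kmt2d itself, only the WT list had a peak, and the alphaKO peak was nearest to Lmbr1l.

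Hdac1, which encodes a histone deacetylase that works in several corepressor complexes, had a single site, listed in both libraries. It lay 2.85 kb outside the gene in WT (chr4:129513120-129513847) and 322 bp before the start of Marcksl1, a neighbouring gene. The coverage was 63 in WT and 112 in alphaKO, and the folds were 7.73 and 19.9. The site was nearer to the start of Marcksl1 than to Hdac1, and no peak of either list lay in the body of Hdac1.

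Bcor, which encodes a corepressor of the transcription factor Bcl6 and a subunit of a Polycomb complex, had 5 WT peaks and 1 alphaKO peak. The shared site lay 30.4 kb beyond the 3′ end (WT chrX:12006181-12006493), with a coverage of 55 and a fold of 8.24 in WT and a coverage of 106 and a fold of 15.7 in alphaKO. The 4 other WT peaks all lay in the gene body, 31.5, 36.6, 69.1 and 92.0 kb after the listed start. Their coverages were 34, 54, 57 and 25 and their folds 6.03, 9.81, 9.01 and 4.20. No alphaKO summit lay in the body of Bcor, and the nearest one to these 4 peaks was between 62.0 and 120 kb away.

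An excess of 4 or more WT over alphaKO peaks, as at Bcor, was found for 0.352% of all protein-coding genes, and an excess of 3 or more alphaKO peaks, as at Bcl11b, for 2.69%. Neither share is matched for length: the median window of all genes was 117 kb, beside 224 kb at Bcor and 194 kb at Bcl11b. Bcor lies on the X chromosome, and the sex of the animals is not given. The Y chromosome held 1 WT peak and 9 alphaKO peaks, and whether these counts reflect sex was not tested. The X chromosome held 140 WT peaks (1.32% of the list) and 269 alphaKO peaks (1.84%), so Bcor went against the order of the counts on its chromosome. The median background of X peaks was 5.87 in WT and 3.85 in alphaKO, against 8.31 and 5.85 on autosomes, and the part of these values in the Bcor result was not tested. A site absent from a list may lie under that list's threshold.

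The maintenance DNA methyltransferase gene Dnmt1 had 1 WT and 2 alphaKO peaks in its body, none shared. The WT peak (chr9:20943379-20944196, coverage 63, fold 7.73) lay 9.09 kb after the nearest listed start. The stronger alphaKO peak (chr9:20933015-20933332, coverage 89, fold 13.8) lay 19.5 kb after it, 10.4 kb from the WT summit. The weaker one (chr9:20952758-20953184, coverage 27, fold 2.74) was the promoter peak shown above, 102 bp before a listed start. Its −log10 q of 3.76 was the lowest of all peaks of the 9 genes, and it was lost when a −log10 q of at least 5 was asked for.

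Dnmt3a, which encodes a de novo DNA methyltransferase, had a shared site with nearly the same coverage and fold in the libraries but a lower rank in alphaKO. The site (WT chr12:3781080-3781488) lay 25.7 kb before the listed start and inside the neighbouring gene Dtnb. Its coverage was 140 in WT and 146 in alphaKO, and its folds were 13.6 and 13.8. In WT it ranked above 73.5% of the list and in alphaKO above 43.9%. A weak WT peak (chr12:3807796-3808140, coverage 29, fold 4.32) lay 744 bp after a listed start. No alphaKO peak lay in the body of Dnmt3a.

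The ratio of alphaKO to WT fold at the 10 shared sites was read against all 7054 sites that were each other's best partner. Depth is unknown, and the median background of autosomal peaks was 8.31 in WT and 5.85 in alphaKO. A ratio alone therefore does not measure a change in binding, and only its place among all shared sites is read here. Over all 7054 sites the median ratio was 1.68 (quartiles 1.19 and 2.41), and 16.3% had a ratio under 1. The 10 sites had a median of 1.86, and 6 lay above the median of all. The 3 strong Bcl11b sites had ratios of 2.92, 2.83 and 2.66, above 84.4%, 83.4% and 80.1% of all shared sites, and the Hdac1 site had 2.57, above 78.5%. The Bcor and Chd7 sites, at 1.91 and 1.81, were near the middle.

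Low in this order were Satb1 at 1.21, the Bcl11b site in the body 65.7 kb from the start at 1.16, Dnmt3a at 1.01 and the Bcl11b site nearest the start at 0.912. They exceeded 25.8%, 23.9%, 16.7% and 11.9% of shared sites. All 10 lay between the 5th and the 95th percentile of the whole, 0.704 and 4.36. Bcl11b therefore held sites near each end of this range of 10. The raw coverage ratio had a median of 1.56 at the 10 sites and 1.40 at all shared sites. Summits lay within 20 bp of each other at 9 of the 10, the exception being the Bcl11b site nearest the start.

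**Figure D4:**
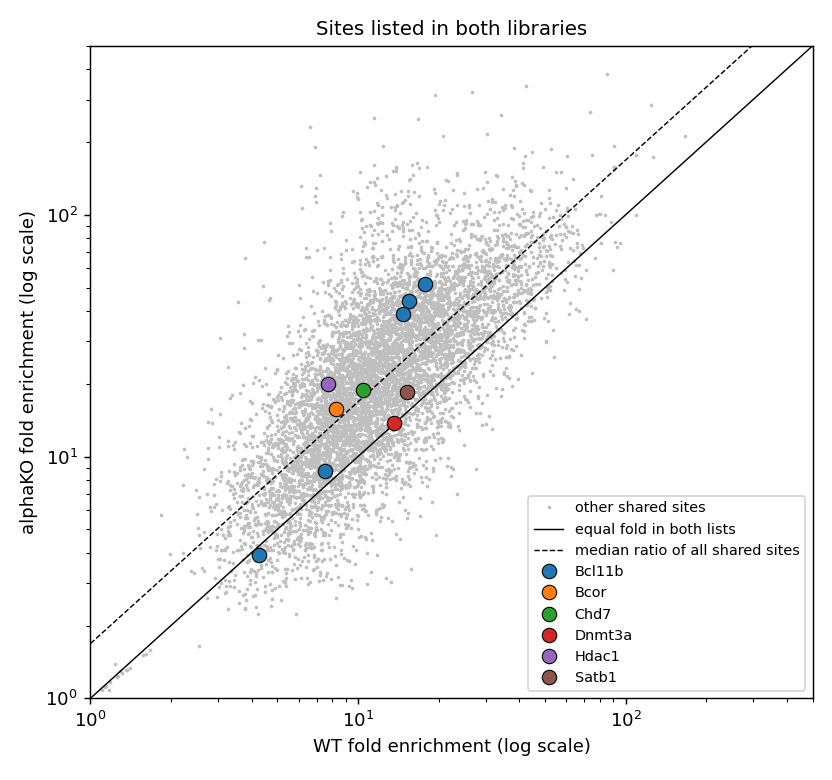
Sites listed in both libraries, with the authors' fold in WT on the x axis and in alphaKO on the y axis (log scales); grey points are all 7054 shared sites and coloured points the 10 at the chromatin genes. The solid line marks equal folds and the dashed line the median ratio of 1.68; 3 Bcl11b sites and Hdac1 lie clearly above the dashed line, and Dnmt3a lies on the solid line.

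A WT summit lay in the body of 7 of the 9 genes, all but Smarca4 and Hdac1, where the background over all genes was 15.7%. An alphaKO summit lay in the body of 4, namely Satb1, Bcl11b, Chd7 and Dnmt1, with a background of 19.5%. With flanks of 10 kb, the genes numbered 8 with WT and 5 with alphaKO peaks (background 26.4% and 30.6%). These backgrounds cover genes of all lengths, with a median body of 17.2 kb beside 93.7 kb for the 9 genes. A longer body leaves more room for a summit, and no background matched for length was taken here. Of all peaks at the 9 genes, 14 of 23 in WT and 11 of 21 in alphaKO lay in the bodies. The difference between these counts was not tested.

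By number of peaks, Smarca4, Bcor and Dnmt3a had more in WT, Bcl11b, Chd7 and Dnmt1 had more in alphaKO, and Satb1, Kmt2d and Hdac1 had equal numbers. Over the 13389 genes with a peak in either list, 26.5% had more WT and 45.5% more alphaKO peaks. Counting any gene, 4 of the 23 WT peaks and 3 of the 21 alphaKO peaks lay within 1 kb of a listed start. Among them were the WT peaks at Satb1, Marcksl1 and Dnmt3a and the alphaKO peaks at Lmbr1l, Marcksl1 and Dnmt1. The shares, 17.4% (7.0 to 37.1) and 14.3% (4.98 to 34.6), had intervals that included those of the whole lists, 17.5% and 8.21%. Starts of 7 of the 9 genes were in the table used, Chd7 and Hdac1 being the others.

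Of the 23 WT peaks, 5 had another gene as the nearest or containing one, and so did 4 of the 21 alphaKO peaks. In WT these were the 3 peaks counted for Smarca4 and those at Marcksl1 and in Dtnb, and in alphaKO the peak counted for Smarca4 and those at Lmbr1l, at Marcksl1 and in Dtnb. With these left out, WT peaks remained at 7 of the 9 genes, alphaKO peaks at 5 and a shared site at 4. Those with a shared site were Satb1, Bcl11b, Chd7 and Bcor. No peak of either list was then left for Smarca4 or Hdac1.

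The limit of 50 kb decided several assignments. Just inside it were the Bcl11b site at 47.1 kb from the gene body (folds 14.7 and 39.0), the alphaKO peak of Satb1 at 46.9 kb (9.90) and that of Kmt2d at 44.0 kb (14.2). Just outside it, a site shared by the lists lay 53.5 kb from Bcl11b (folds 15.8 in WT and 12.8 in alphaKO). Another lay 55.9 kb from Kmt2d (13.6 and 20.3) and another 55.5 kb from Dnmt1 (7.98 and 17.9). Single-list peaks lay 50.7 kb (WT, fold 4.66) and 51.9 kb (alphaKO, 14.2) from Kmt2d and 51.9 kb from Dnmt3a (WT, 5.47).

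A wider list of 80 other chromatin genes had WT peaks at 50 genes and alphaKO peaks at 47 in the same window. Peaks of each list were near 37 (46.3%), WT peaks alone near 13, alphaKO peaks alone near 10 and no peak near 20. A shared site was near 35 of them (43.8%). These shares are closer to those of all protein-coding genes than to those of the 9 genes. The list has no test of its own.

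Over all protein-coding genes, 40.9% had peaks of each list, 36.6% a shared site, 6.14% WT peaks alone and 14.1% alphaKO peaks alone, and the counts by role are to be read beside these shares. SWI/SNF subunit genes had peaks of each list in 12 of 15 cases, all 12 with a shared site. Genes of other remodellers had peaks of each list in 5 of 9 cases and genes of looping and architecture in 6 of 11. DNA methylation genes had them in 4 of 9 cases and histone methylation genes in 4 of 12. For Polycomb genes the count was 3 of 12, and for deacetylase and acetyltransferase genes 3 of 12. WT peaks alone were near 4 histone methylation, 4 deacetylase or acetyltransferase, 2 Polycomb, 1 SWI/SNF, 1 other remodeller, 1 looping and 0 DNA methylation genes. AlphaKO peaks alone were near 2, 1, 2, 0, 2, 2 and 1 genes in the same order of roles. These counts are small and their differences were not tested.

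Of the wider list, the strongest WT peaks among genes with peaks of each list were near Bptf, a subunit of the NURF remodeller (fold 44.2 in WT, 85.8 in alphaKO), Kdm5b, a histone H3 demethylase (42.4 and 101), Tet3, which oxidises methylcytosine (33.3 and 36.4), and Mbd3, a NuRD subunit (33.2 and 61.2). Each exceeded the highest WT fold of the 9 genes, 17.7 at Bcl11b. Genes with WT peaks alone included Setdb1, which encodes a histone H3 methyltransferase (8.70). AlphaKO peaks alone were strongest near Kdm6a, a histone demethylase that works with Kmt2d (37.3), Hdac4 (33.0) and Tet1 (16.6). Each fold is that of the strongest peak of the library, and the positions can differ between libraries.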

How the data were processed

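The series holds 4 samples, a p63 ChIP and an input for each genotype; the inputs were not used here. The submitters' processing notes name mm10, Bowtie2 and MACS2 2.1.1.20160309; caller options, controls and duplicate handling are not named there. The deposited columns, per the file headers, give a peak's pileup (a coverage signal, in fragments), a fold enrichment (a ratio to local background), and −log10 of the p-value and the q-value; positions are 1-based. Lists hold no read totals, so the depth is unknown. Background was recovered as pileup plus 1, divided by fold, minus 1. Folds belong to each peak within its list, and ratios of folds between lists are read only by their place among all shared sites.

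Genes came from a RefSeq table of GRCm38.p6 (21883 protein-coding genes on chromosomes 1 to 19, X and Y) and starts and strands from a RefSeq promoter table of the same build, matched by symbol. Exons and introns were not analysed here. Overlap meant 1 shared bp. Wilson intervals (95%) cover counting error only. The members and lists were chosen with earlier results of these data known. Named genes were the 9 members with every peak, the genes containing or nearest to those peaks, and, from the wider list, the 4 with the highest WT fold among genes with peaks of each list and the 3 with the highest fold among those of a single list. Some genes that this rule takes are left out of the text. Peak matching was tested on simulated data. Computation used pandas 2.3.3 and NumPy 2.4.6 in Python 3.11.15, intervals SciPy 1.17.1, and plots matplotlib 3.10.9.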

Additional observations from a re-analysis of the deposited data

How the results depend on the processing

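Of 69 values under 12 alternatives, 60 stayed within the Wilson interval of a share or within 1.5 times of a count, and 9 counts moved further; neither share of peaks with a partner moved beyond its interval under any alternative run. The moves follow from the width of the window or from which gene a peak counts for. WT peaks at the 9 genes went from 23 to 36 with flanks of 100 kb and to 14 in gene bodies alone, and alphaKO peaks from 21 to 13 with flanks of 10 kb, 38 with 100 kb and 11 in bodies alone. Genes with an alphaKO peak went from 9 to 5 with flanks of 10 kb, to 4 in bodies alone and to 5 where the gene had to be the nearest. Genes with a shared site went from 6 to 3 in bodies alone. Some of the 60 values could not have moved. No peak at the 9 genes had a background above 9.69, so leaving out backgrounds above 50 changed nothing. A −log10 q of at least 5 kept all 23 WT peaks, and equal list lengths left the shorter WT list whole. The Wilson intervals were also wide, 25.6 to 63.2 for the WT share and 28.3 to 67.6 for the alphaKO share. No paired analysis was possible because each genotype had 1 library. Without read totals, weak sites missing from a list cannot be told apart from sites under its threshold.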
